A study of Mus musculus with 36 samples.

Results

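Interferon-inducible GTPases were followed in cultured enteric glial cells (EGCs), the glia of the gut wall, after exposure to medium conditioned by colon tumors. The set comprised 10 genes taken by name from the count table: 7 guanylate-binding proteins (Gbp2, Gbp3, Gbp4, Gbp5, Gbp6, Gbp7 and Gbp9) and 3 immunity-related GTPases (Igtp, Irgm1 and Iigp1), out of 43472 gene rows in all. They were picked by gene family and not by a cutoff on measured values, but with earlier results of these data known. Each of the 10 had counts in at least one library.

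The cells were WT primary EGCs grown from embryonic C57BL/6J mouse intestine as neurospheres, then dissociated and differentiated in serum-containing medium, so they are embryonic cells in culture and not adult glia in tissue. They were left unstimulated, or were given H-CM (supernatant of digested healthy colon kept in culture overnight) or TME-CM (supernatant of digested orthotopic tumors of MC38, a mouse colon adenocarcinoma line). RNA was taken after 6 h, 12 h or 24 h and sequenced from the 3′ end, with 4 libraries in each of 9 groups and 36 in all. Nothing in the labels says that the replicates are separate cultures or separate batches of conditioned medium, so a p-value measures the spread between these libraries, which may be technical.

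Guanylate-binding proteins (GBPs) and immunity-related GTPases (IRGs) are large GTP-hydrolysing proteins that cells make after interferon, above all interferon gamma. They assemble on pathogen-containing vacuoles and on bacterial surfaces, open them, and expose microbial lipopolysaccharide to the noncanonical inflammasome. Several GBPs reach membranes through a prenyl lipid at their C-terminus, and the IRGs divide into effectors that attack vacuoles and IRGM proteins that keep the effectors off the host's own membranes. Their promoters are textbook carriers of the interferon-responsive elements called GAS and ISRE.

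The genes lie in a few clusters on the mouse genome (GRCm38, the assembly also called mm10). Gbp5 (chr3:142493978-142522344), Gbp7 (chr3:142530342-142550149), Gbp3 (chr3:142560026-142573209) and Gbp2 (chr3:142620602-142638008) lie in this order on the plus strand of chromosome 3. Gbp2b, which is absent from the count table, lies between Gbp3 and Gbp2. Gbp9 (chr5:105077630-105139539), Gbp4 (chr5:105115767-105139586) and Gbp6 (chr5:105270702-105293698) are on the minus strand of chromosome 5. Irgm1 (chr11:48861968-48871683, minus strand) and Igtp (chr11:58199556-58207591, plus strand) are on chromosome 11. The position of Iigp1 is not given here.

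All 10 are protein coding. The RefSeq promoter table (GRCm38.p6), which gives 250 bases before to 50 bases after each start, held 6 of the 10 genes. Each of these 6 had a promoter with the ISRE core (GAAA, any 2 bases, GAAA) on one strand or the other, beside 3.44% of 32851 promoters. That share is counted over promoters and not over genes. Gbp3 has another promoter in the table (chr3:142560106-142560405), which holds neither the ISRE core nor the GAS letters. The GAS letters TTCNNNGAA, which read the same on both strands, were in 3 of the 6 (Gbp5, Gbp7 and Igtp), beside 8.3% of all promoters, and the stricter form TTCCNGGAA, a subset of it, in 1 of the 6, beside 1.15%. The stretches around the ISRE core are shown because they are what these co-varying genes share in sequence. Each is printed 5′ to 3′ on the strand of its gene, with capitals marking the ISRE core (in either orientation, the other being TTTC, any 2 bases, TTTC) and, in Igtp, also the GAS letters.
Gbp5, chr3:142496744-142496803, plus strand: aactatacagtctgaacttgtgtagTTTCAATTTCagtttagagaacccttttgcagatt
Gbp7, chr3:142530258-142530317, plus strand: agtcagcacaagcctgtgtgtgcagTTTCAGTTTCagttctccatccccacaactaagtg
Gbp3, chr3:142559974-142560039, plus strand: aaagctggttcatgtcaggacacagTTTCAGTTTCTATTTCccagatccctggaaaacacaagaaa
Gbp2, chr3:142620579-142620638, plus strand: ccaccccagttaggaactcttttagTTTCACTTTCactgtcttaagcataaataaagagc
Irgm1, chr11:48871410-48871475, minus strand: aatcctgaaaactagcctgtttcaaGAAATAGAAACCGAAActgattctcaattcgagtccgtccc
Igtp, chr11:58199497-58199556, plus strand: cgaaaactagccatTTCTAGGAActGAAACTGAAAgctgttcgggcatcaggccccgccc

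In Gbp3 and Irgm1 the core occurs in 2 overlapping copies, which is why the capitals run on. In the 4 GBP promoters the core reads with TTTC on the strand of the gene, whereas in both IRG promoters it reads with GAAA. Counted from the start in the RefSeq table, which can lie elsewhere than that of the GENCODE gene positions above (in Gbp2, Gbp5 and Irgm1 the core lies inside the GENCODE gene), the core begins 34 bases before the start in Igtp, 45 in Gbp3, 53 in Gbp7, 59 in Gbp2 and 165 in Gbp5, with the first copy of Irgm1 at 30. In Igtp the GAS letters stand 2 bases before the ISRE core. These matches describe letters in a window and are not evidence of binding.

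Library totals ranged from 13518 to 5244763 counts at 6 h (median 1526580), from 2005239 to 5961933 at 12 h and from 1608018 to 7552509 at 24 h. The smallest is H-CM 6 h replicate 4, in which 1 count is worth 36.8 CPM (counts scaled to a common library size). The Yam1 row alone took 11% to 48.6% of a library's counts, unevenly at 6 h (20% to 48.6% with H-CM, 11% to 37.8% with TME-CM), and without it the members called at 6 h were 1 for TME-CM over H-CM, as with it, and 4 in place of 3 for TME-CM over unstimulated cells. Of the enteric glial genes, Sox10, the transcription factor of the lineage, had medians of 56 to 86.1 CPM in every group. S100b, a calcium-binding glial protein, had a lower median with TME-CM at 12 h (34.2 CPM, against 64 unstimulated and 72.5 with H-CM) and at 24 h (50.4 against 67.3 and 80.8 CPM), without passing the test between media. None of the 7 listed glial genes passed it in any comparison of media. Macrophage genes, which mark cells that make GBPs readily, were also detected. The 11 of 12 listed markers in the table summed to medians between 128 and 377 CPM per group. For the 7 glial genes the medians of the sum lay between 205 and 391 CPM. Csf1r, one of the macrophage genes, had medians between 4.12 and 8.87 CPM. At 24 h the macrophage sum ran from 54.3 to 225 CPM in unstimulated libraries, from 74.3 to 334 CPM with H-CM and from 69.1 to 352 CPM with TME-CM. None of the 8 of these markers tested at 24 h passed the test in any of the 3 comparisons, and the T cell gene Cd3e had a median of 0 in every group. The 7 T and NK cell markers summed to medians of 22.5, 23.3 and 0 CPM at 6 h (unstimulated, H-CM and TME-CM), 11.6, 3.91 and 10.5 CPM at 12 h and 2.84, 2.64 and 3.33 CPM at 24 h. Among them Nkg7, a cytotoxic granule gene, differed between TME-CM and H-CM by -5.14 at 6 h (unadjusted p = 0.00545, adjusted p = 0.569) and 1.80 at 12 h (unadjusted p = 0.0333, adjusted p = 0.397). Smooth muscle and fibroblast markers summed to medians between 2650 and 7380 CPM. At 24 h these medians were 7380 CPM unstimulated, 3960 CPM with H-CM and 3940 CPM with TME-CM. Enteric neuron markers summed to medians between 372 and 606 CPM and endothelial markers to medians between 14.2 and 54.4 CPM. The endothelial gene Kdr was lower with TME-CM than with H-CM at 24 h (-1.655, adjusted p = 0.00203). The part of these cell types in the GTPase levels was not tested, and in bulk RNA fewer cells of a type and less RNA per cell cannot be told apart. Calls below are genes with an adjusted p under 0.05 in edgeR's quasi-likelihood test, adjusted by Benjamini-Hochberg over all genes tested at that time.

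The summed level of the 10 genes gives the overall course. It was 38.3 ± 13 CPM (SD, n = 4) in unstimulated cells at 12 h, 156 ± 120 CPM with H-CM and 1050 ± 521 CPM with TME-CM. At 24 h the same sums were 38.7 ± 5.36, 145 ± 67.4 and 577 ± 268 CPM, and at 6 h they were 81.2 ± 42.7, 132 ± 53.3 and 982 ± 544 CPM. TME-CM libraries were therefore all above the unstimulated ones at each time, whereas the TME-CM and H-CM groups overlapped at 12 h and 24 h.

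**Figure D1:**
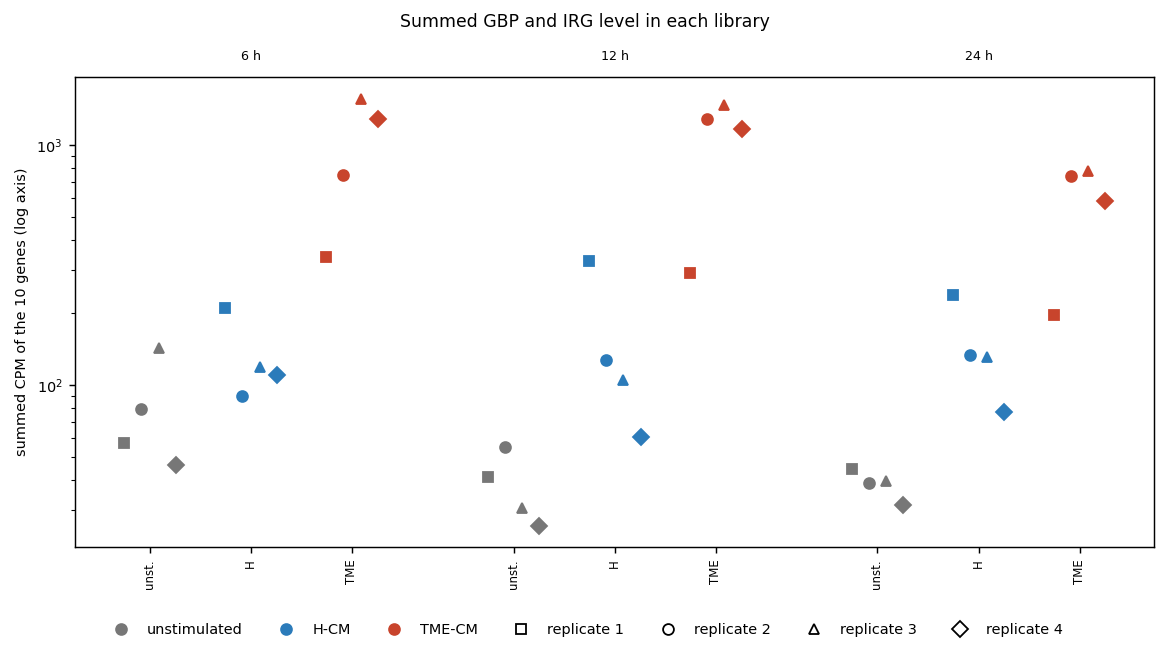
Summed CPM of the 10 GTPase genes in each of the 36 libraries (log axis), by time and medium, with the marker shape giving the replicate number. At 12 h and 24 h the square of TME-CM (replicate 1; 294 and 195 CPM) lies below the square of H-CM (330 and 238 CPM), while the other TME-CM libraries lie at 1170 to 1470 and 587 to 782 CPM.

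Both overlaps came from libraries numbered 1. TME-CM replicate 1 gave the lowest level of its group for 9 of the 10 genes at 12 h and for 8 at 24 h, while over all genes kept it was the lowest library for 20.7% and 19.9%. H-CM replicate 1 gave the highest level of its group for 9 of 10 genes at both times, beside 26.7% and 30.6% of all genes kept. Lcn2, a reactive glia gene, was looked up as a check of these labels after the GTPase values had been seen. It stood at 549 and 859 CPM in TME-CM replicate 1 and at 40.1 and 87.8 CPM in H-CM replicate 1 at 12 h and 24 h. Lcn2 was between 464 and 662 CPM in the 4 TME-CM libraries at 12 h and between 859 and 1110 CPM at 24 h. The other H-CM libraries had 9.17, 6.84 and 5.27 CPM at 12 h and 18.5, 10.2 and 7.43 CPM at 24 h. For this gene every TME-CM library was thus above every H-CM library at both times. Even so, H-CM replicate 1 was again the highest of its group at both times, and TME-CM replicate 1 was the lowest of its group at 24 h. The cause was not tested, and counts of TME-CM calls over H-CM are therefore also given without these libraries. Because the libraries were singled out by the levels of these same genes, larger differences and more calls without them are partly built in. Such values show how far the calls depend on these libraries and are no evidence of a larger difference.

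The largest and most uniform rise was that of TME-CM over unstimulated cells. At 12 h, 9 of the 9 genes that passed the filter on low counts were called higher, beside 2.67% of 12156 genes tested, and at 24 h again 9 of 9, beside 4.82% of 12713 genes. Without Gbp6 at 12 h and Gbp4 at 24 h, which failed the filter, the groups overlapped for none of those 9, beside 5.99% and 6.74% of all genes that lay entirely higher. A low gene passes the filter only where one group is high, so these counts describe the genes kept and not all 10.

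**Figure D2:**
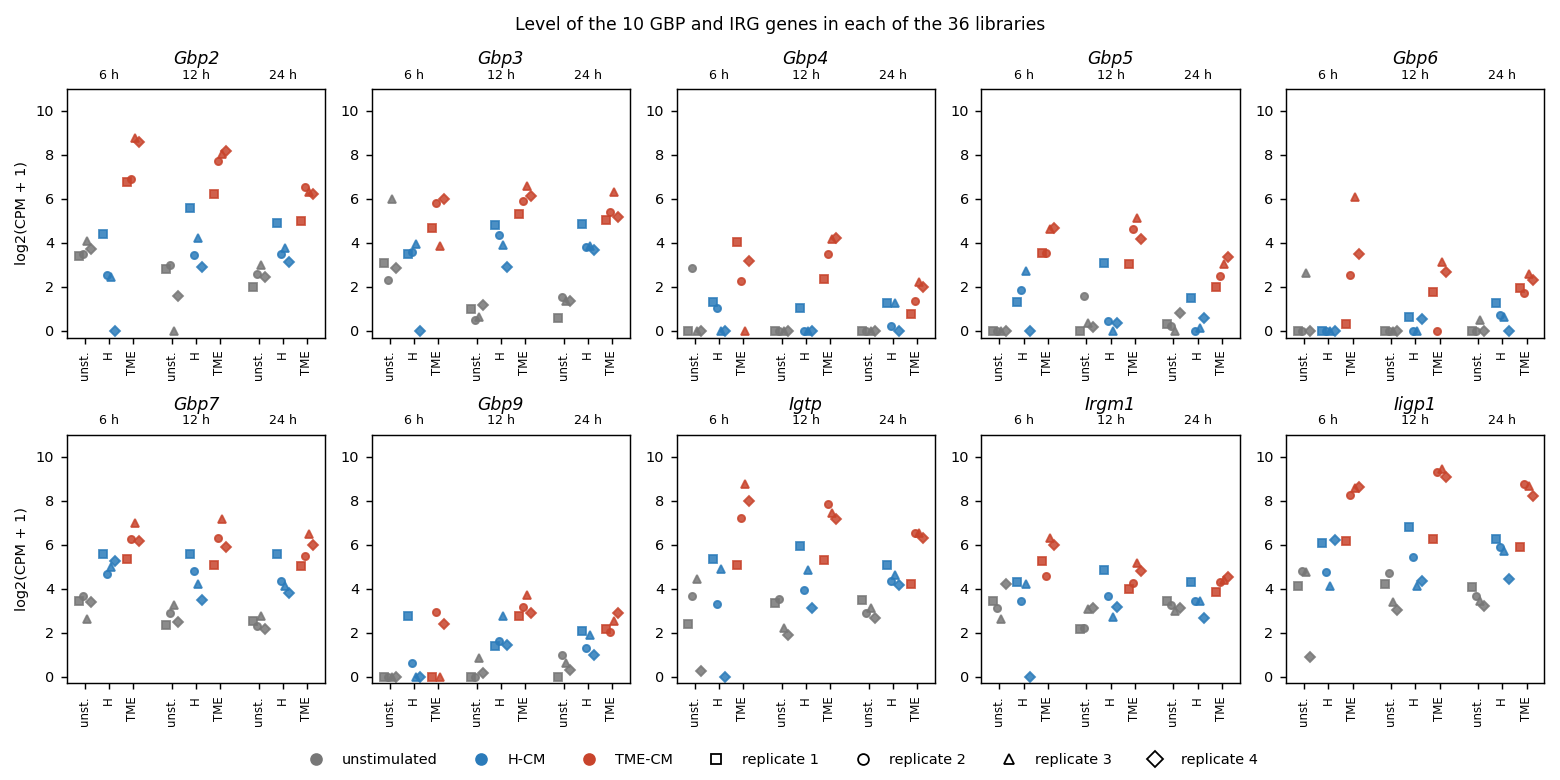
CPM of each of the 10 GTPase genes in every library (one panel a gene, 4 libraries a group, on a log2(CPM + 1) axis), by medium and time. TME-CM libraries stand highest in nearly every panel, with a low library (replicate 1) at 12 h and 24 h for Iigp1, Igtp and Gbp2.

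Gbp2, a prenylated GBP that coats bacteria and vacuoles, was the only member called between the media at 6 h. At 6 h it stood at 109, 119, 430 and 381 CPM in TME-CM replicates 1 to 4, against 20.4, 4.75, 4.44 and 0 CPM with H-CM and 9.72, 10.2, 15.8 and 12.2 CPM unstimulated. At 12 h the TME-CM values were 73.3, 214, 259 and 289 CPM, against 47.3, 9.87, 17.8 and 6.44 CPM with H-CM and 6.11, 6.96, 0 and 2.05 CPM unstimulated. At 24 h they were 31, 93.6, 77.5 and 74 CPM, against 28.7, 10.2, 12.6 and 7.92 CPM with H-CM and 3.01, 4.97, 6.91 and 4.45 CPM unstimulated. In all 3 time points every TME-CM library was above every H-CM library, but by a narrow margin at 24 h, where TME-CM replicate 1 (31 CPM) and H-CM replicate 1 (28.7 CPM) nearly met.

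The log2 fold change of Gbp2 in TME-CM over H-CM was 4.82 ± 0.655 (SE, adjusted p = 0.000281) at 6 h, where it ranked first by p among 9256 genes. It was 3.39 at 12 h, which missed the threshold (adjusted p = 0.0643), and 2.17 ± 0.395 (adjusted p = 0.0045) at 24 h. The 6 h call did not rest on the smallest library, since without H-CM 6 h replicate 4 the value was 4.85 (adjusted p = 0.00151). Against unstimulated cells Gbp2 rose by 4.47 at 6 h (adjusted p = 0.000121), 6.01 at 12 h (adjusted p = 0.00374) and 3.78 at 24 h (adjusted p = 4.77e-05) on the log2 scale.

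Gbp3, in the same chromosome 3 cluster as Gbp2, was also called higher with H-CM alone. Unstimulated cells had 1.02, 0.41, 0.529 and 1.23 CPM at 12 h, H-CM cells 26.9, 19.6, 13.9 and 6.58 CPM, and TME-CM cells 39.4, 59.2, 96.5 and 68.6 CPM. At 24 h the values were 0.502, 1.92, 1.55 and 1.61 CPM unstimulated, 27.9, 13.3, 13.5 and 11.9 CPM with H-CM and 32.2, 41.8, 78 and 34.9 CPM with TME-CM. The 3 groups were ordered without overlap at both times.

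For Gbp3 the log2 rise of TME-CM over H-CM was 1.99 ± 0.356 (adjusted p = 0.0031) at 12 h and 1.48 ± 0.308 (adjusted p = 0.00616) at 24 h. The rise of H-CM over unstimulated cells was 4.20 (adjusted p = 0.00021) and 3.49 (adjusted p = 9.66e-05), and that of TME-CM over unstimulated cells was 6.20 (adjusted p = 1.44e-07) and 4.97 (adjusted p = 9.31e-08). At 6 h Gbp3 was not called in any comparison, and one unstimulated library stood at 63.1 CPM, a value resting on 12 counts.

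Gbp5, which promotes inflammasome assembly in macrophages, had few counts in most libraries without tumor medium. It had no count in any unstimulated library at 6 h against 10.5, 10.5, 24.2 and 25 CPM with TME-CM, at least 43.8-fold higher when 3 counts over the unstimulated group are taken as the floor, and 1.46, 2.64, 5.55 and 0 CPM with H-CM. At 12 h the TME-CM libraries had 7.35, 24, 34.1 and 17.2 CPM, while H-CM libraries had 7.53, 0.353, 0 and 0.293 CPM. At 24 h TME-CM libraries had 3.03, 4.6, 7.13 and 9.4 CPM and H-CM libraries 1.8, 0, 0.109 and 0.495 CPM. A single H-CM library, replicate 1, thus overlapped the tumor group at 12 h, and at 24 h it was the highest of its group without reaching it.

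The 24 h difference of Gbp5 between TME-CM and H-CM was 3.44 ± 0.811 on the log2 scale (adjusted p = 0.0117), with 11 counts in the 4 H-CM libraries together. It was lost without H-CM replicate 2 (adjusted p = 0.0531), H-CM replicate 3 (adjusted p = 0.0691) or TME-CM replicate 4 (adjusted p = 0.058). It was 3.45 at 12 h (adjusted p = 0.121), and 6.32 (adjusted p = 0.000349) without H-CM 12 h replicate 1. Against unstimulated cells it rose by 5.25 at 12 h (adjusted p = 0.0163, and 0.0599 to 0.0755 without unstimulated replicate 1, 3 or 4) and 4.22 at 24 h (adjusted p = 0.00132).

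Gbp7, which lies between Gbp5 and Gbp3 on chromosome 3, responded to both media. Its values at 24 h were 4.76, 4, 5.78 and 3.46 CPM unstimulated, 47.1, 19.3, 16.5 and 12.9 CPM with H-CM, and 31.3, 44.1, 87.7 and 63.1 CPM with TME-CM. H-CM cells were all above unstimulated cells, and the 2 media overlapped through H-CM replicate 1. The rise over unstimulated cells at 24 h was 2.44 with H-CM (adjusted p = 0.0106, and 0.0524 to 0.0602 without unstimulated replicate 1, 2 or 4) and 3.66 with TME-CM (adjusted p = 7.65e-05), while the difference between the media of 1.22 missed the threshold (adjusted p = 0.0947). At 6 h TME-CM already stood higher than unstimulated by 2.99 (adjusted p = 0.0208), with 39.9 to 125 CPM against 5.26 to 11.7 CPM.

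The chromosome 5 genes were measured on few counts. Gbp4 had no count in any unstimulated library at 12 h or 24 h, and with H-CM at 12 h it had 4 counts, all in replicate 1 (1.08 CPM). TME-CM libraries had 4.08, 10.4, 17.2 and 17.7 CPM at 12 h, and 0.721, 1.53, 3.63 and 3.02 CPM at 24 h. The level with TME-CM was at least 63.7-fold that of unstimulated cells at 12 h and at least 19.9-fold at 24 h, again with 3 counts over the unstimulated group as the floor. Against H-CM at 12 h it was higher by 5.67 ± 1.06 on the log2 scale (adjusted p = 0.00638), a value that rests on those 4 counts. All 4 TME-CM libraries of 24 h were below all 4 of 12 h, beside 2.30% of 13105 genes, and this log2 change of -2.43 had an unadjusted p of 0.00714 and an adjusted p of 0.296.

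Gbp9 had 0, 0, 0.794 and 0.137 CPM in unstimulated cells at 12 h, 1.61, 2.12, 5.7 and 1.76 CPM with H-CM, and 5.72, 8, 12.2 and 6.43 CPM with TME-CM. The groups did not overlap, TME-CM over H-CM only just (5.72 against 5.7 CPM), and TME-CM exceeded unstimulated cells by 4.81 on the log2 scale (adjusted p = 0.00181). Neither TME-CM over H-CM (1.525, adjusted p = 0.433) nor H-CM over unstimulated cells (3.28, adjusted p = 0.221) was called at 12 h. At 24 h Gbp9 had 3.46, 3.07, 4.71 and 6.38 CPM with TME-CM, higher than unstimulated cells by 3.20 (adjusted p = 0.00119) and not called over H-CM (1.01, adjusted p = 0.384).

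Gbp6 had 88 counts over the 4 TME-CM libraries at 24 h (2.88, 2.3, 5.11 and 4.03 CPM) and 3 counts over the unstimulated ones, a ratio of 32.5 with an exact counting interval of 10.8 to 161. The TME-CM group lay above the H-CM group, whose libraries had 1.4, 0.648, 0.546 and 0 CPM, by 2.32 (adjusted p = 0.057). At 6 h 162 of its 214 TME-CM counts came from replicate 3 (66.6 CPM). Gbp6 is the least certain of the set, because 77.8% of the 50-base stretches in the last 500 bases of its transcript also occur in Gbp10, Gm43302 or Gbp9 and reads mapping to several places were discarded by the authors. For the other 9 genes that share was between 0% and 6.43%.

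Iigp1, an effector IRG also known as Irga6 that loads onto parasite vacuoles, had the widest gap between replicate 1 and the others. With TME-CM it stood at 75.9, 637, 690 and 542 CPM at 12 h and at 59, 440, 405 and 292 CPM at 24 h. With H-CM it stood at 110, 41.9, 16.7 and 19.5 CPM and at 75, 58.5, 51 and 20.8 CPM, and in unstimulated cells at 17.3, 25, 9.53 and 7.25 CPM and at 15.8, 11.9, 9.87 and 8.16 CPM. TME-CM replicate 1 was thus inside the range of the H-CM libraries at both times, while the other 3 TME-CM libraries were all above every H-CM library.

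The rise of Iigp1 over H-CM was 3.38 at 12 h (adjusted p = 0.0838) and 2.50 ± 0.574 at 24 h (adjusted p = 0.0333), called although the groups overlap. Leaving out 1 library in turn kept the 24 h call in 2 of 8 fits, those without replicate 1 of H-CM (adjusted p = 0.0457) or of TME-CM (adjusted p = 0.000101), and in the other 6 the adjusted p ran from 0.067 to 0.105. Against unstimulated cells it rose by 4.15 at 6 h (adjusted p = 0.0304), 5.10 at 12 h (adjusted p = 0.00857) and 4.74 at 24 h (adjusted p = 0.000941).

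Igtp, also called Irgm3, is one of the IRGM proteins that protect host membranes. At 12 h it had 38, 231, 171 and 142 CPM with TME-CM, 60.3, 14.5, 27.6 and 7.61 CPM with H-CM and 9.16, 10.7, 3.71 and 2.74 CPM unstimulated. At 24 h the TME-CM libraries had 17.6, 92.8, 92.8 and 77.9 CPM against 32.9, 19.4, 23.3 and 16.8 CPM with H-CM and 10.3, 6.57, 7.76 and 5.31 CPM unstimulated. TME-CM replicate 1 fell below H-CM replicate 1 at both times. The 24 h rise over H-CM was 1.57 and missed the threshold (adjusted p = 0.0594), whereas it was called without TME-CM 24 h replicate 1 (1.90, adjusted p = 9.84e-06) or without H-CM 24 h replicate 1 (1.78, adjusted p = 0.0486). Over unstimulated cells it rose by 4.60 at 12 h (adjusted p = 0.00656) and 3.25 at 24 h (adjusted p = 0.000608). It shares 162 exon bases with its neighbour Irgm2 on the same strand. Such overlaps were larger for Gbp6 (1726 bases with Gm43302) and Gbp7 (637 bases with Gm43802), and Gbp4 and Gbp9 share 61 and 60 bases with each other or Gbp8.

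Irgm1, another IRGM protein with a role in autophagy and mitochondrial quality, had the smallest rises with TME-CM at 12 h and 24 h. It had 3.56, 3.69, 7.41 and 7.66 CPM unstimulated at 12 h, 28, 11.6, 5.47 and 7.9 CPM with H-CM and 15.1, 18.4, 34.5 and 27 CPM with TME-CM. At 24 h it had 10, 8.49, 6.91 and 7.66 CPM unstimulated, 18.9, 10, 9.73 and 5.45 CPM with H-CM and 13.6, 18.8, 20.2 and 22.3 CPM with TME-CM. TME-CM exceeded unstimulated cells by 2.02 (adjusted p = 0.0099) and 1.18 (adjusted p = 0.00637), the smallest of the called rises at either time, and exceeded H-CM by 0.86 (adjusted p = 0.505) and 0.72 (adjusted p = 0.17).

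**Figure D3:**
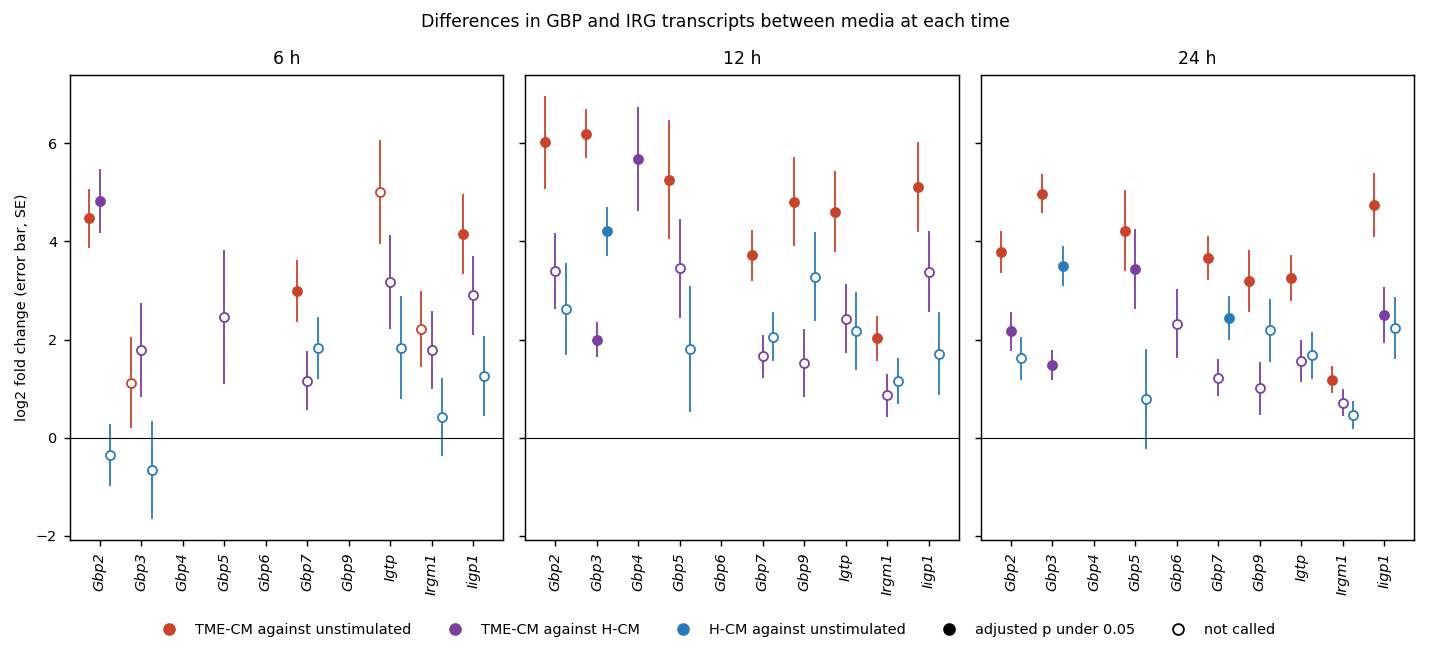
Log2 fold change (± SE) of each GTPase gene in the 3 comparisons at each time, with filled points for adjusted p under 0.05. Pairs in which either group had at most 3 counts in all, and genes not tested at that time, are left out. Every gene drawn lies above 0 in the comparisons with TME-CM, Gbp3 and Gbp7 alone are filled in H-CM against unstimulated cells, and Irgm1 has the smallest called values of TME-CM against unstimulated cells.

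Counted over the set, TME-CM was called above H-CM for 1 of 7 genes tested at 6 h (Gbp2), beside 0.0972% of 9256 genes. At 12 h it was 2 of 9 (Gbp3 and Gbp4), beside 1.22%, and at 24 h 4 of 9 (Gbp2, Gbp3, Gbp5 and Iigp1), beside 2.75%. The groups did not overlap for 3, 4 and 4 of the tested genes in order of time, beside 3.54%, 3.95% and 5.59% of all genes. All tested members had a positive log2 fold change, with medians of 2.45, 2.42 and 1.57, beside 0.134, -0.0011 and 0.0049 over all genes tested.

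These counts moved with single libraries. Without H-CM replicate 1 the count rose from 2 to 7 at 12 h and from 4 to 8 at 24 h. Without TME-CM replicate 1 it rose to 4 at 12 h and 6 at 24 h. These rises are partly built in, since both libraries had been singled out by the levels of these genes. The count fell to 2 at 24 h without H-CM replicate 2, H-CM replicate 3 or TME-CM replicate 4. Gbp2 and Gbp3 were called at 24 h, and Gbp3 and Gbp4 at 12 h, in 8 of 8 fits that each left out 1 library. At 6 h the count of 1 did not change in any of 8 such fits. In one model of all 36 libraries no member was called at 24 h.

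**Figure D4:**
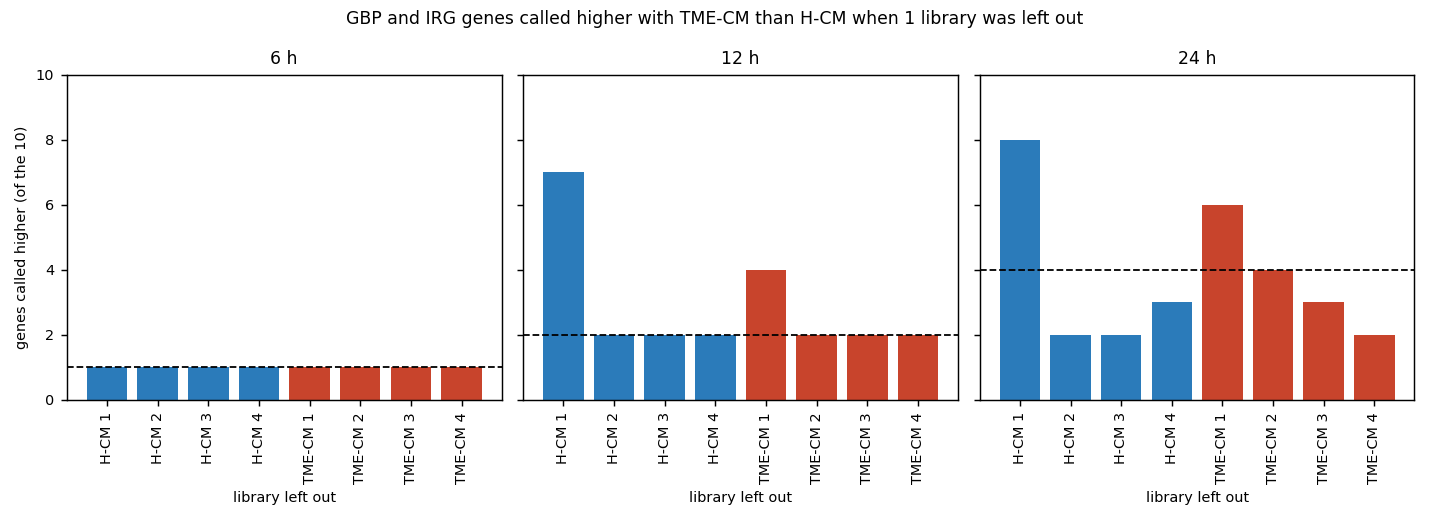
Number of the GTPase genes called higher in TME-CM than in H-CM when each library is left out in turn, by time, with the count from all libraries as a line. The highest values, 7 at 12 h and 8 at 24 h, are those without H-CM replicate 1, and the count stays at 1 at 6 h.

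H-CM against unstimulated cells gave fewer calls than TME-CM against the same unstimulated libraries, though the difference in counts was not itself tested. None of 7 members was called at 6 h by edgeR or by DESeq2, beside 0% of all genes, and 2 (Gbp5 and Gbp7) had an unadjusted p under 0.05, beside 0.411% of genes higher at that level. At 12 h 1 of 9 was called (Gbp3), beside 0.354%, and at 24 h 2 of 9 (Gbp3 and Gbp7), beside 1.07%. The H-CM group lay entirely above the unstimulated group for 1, 3 and 6 tested members in order of time, beside 0.486%, 2.27% and 4.14% of all genes. The 6 at 24 h were Gbp2, Gbp3, Gbp7, Gbp9, Igtp and Iigp1, with log2 rises between 1.61 and 3.49. Gbp4, not tested at 24 h, had 21 counts with H-CM and 0 unstimulated, at least 7.96-fold higher.

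TME-CM against unstimulated cells at 6 h called 3 of 7 (Gbp2, Gbp7 and Iigp1), beside 0.432% of genes, with 6 of 7 groups apart, beside 2.42%. Igtp was near the threshold, with 32.9, 148, 436 and 253 CPM against 4.32, 11.7, 21 and 0.213 CPM and a 31.9-fold rise (adjusted p = 0.0519). The 6 h count was 1 without unstimulated replicate 1 or replicate 2, and 5 without TME-CM replicate 1 or replicate 2.

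Over time within TME-CM no member passed the test. From 6 h to 12 h, 0 of 10 genes were called by edgeR or DESeq2, beside 0.671% called higher and 0.718% lower among 12668 genes, and 0 had an unadjusted p under 0.05, beside 8.94% higher and 8.42% lower. From 12 h to 24 h, 0 of 10 were called by either tool, beside 0.504% higher and 0.122% lower, while all 10 values were negative (-2.43 to -0.14) and 2 had an unadjusted p under 0.05 (Gbp2 at -1.59 and Gbp4 at -2.43), beside 4.65% of genes higher and 3.24% lower at that level. The change of the TME-CM over H-CM difference between times was called for 0 of 10 by either tool in both steps, beside 0% of all genes. At an unadjusted p under 0.05 there were 0 members in the step from 6 h to 12 h, beside 4.08% of genes higher and 5.61% lower, and 1 (Gbp4, lower) in the step from 12 h to 24 h, beside 1.87% higher and 1.46% lower.

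The 10 genes moved together across libraries. Over the 24 libraries of 12 h and 24 h, which share the medium groups, the Pearson correlation of each gene's log2 CPM with the mean of the other members ran from 0.79 (Gbp6) to 0.951 (Iigp1), with Gbp7 at 0.95 and Igtp at 0.935. The 5 other genes whose levels followed the mean of the set most closely, among 13095 genes, were Cxcl10 (r = 0.972), Ifi204 (0.954), Irf1 (0.953), Ifitm3 (0.948) and Gm4951 (0.947). These are descriptions over libraries that differ in medium.

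Other members of the same families were fewer in the data. Of 19 further GBP and IRG genes listed, 17 were in the table and 5 were tested at 24 h. Of these 5, the IRGM gene Irgm2 and the IRGs Ifi47 and Gm4951 were called above unstimulated cells with TME-CM, beside 4.82% of all genes. Ifi47 (1.65, adjusted p = 0.0247) and Gm4951 (2.29, adjusted p = 0.0302) were also called above H-CM, beside 2.75% of all genes. The rest of the 5 are not named here. Irgm2 has the GAS letters and the ISRE core at the same spacing as Igtp in its promoter stretch, but with the stricter GAS form, which Igtp lacks, and is shown for comparison (capitals as above).
Irgm2, chr11:58214888-58214947, plus strand: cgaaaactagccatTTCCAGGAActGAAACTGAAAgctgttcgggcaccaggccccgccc

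Upstream genes were read from a list of interferon signalling. Of the ligands, Ifng had 1 count in 36 libraries together and Ifnb1 0. At 24 h 10 of 17 tested genes of the list were called above unstimulated cells with TME-CM, beside 4.82% of all genes, and 4 with H-CM, beside 1.07%. In TME-CM over H-CM 4 were called, beside 2.75%: Socs3, a feedback inhibitor of cytokine signalling (2.13, adjusted p = 3.93e-06), Irf1, a transcription factor that binds ISRE-like elements (0.96, adjusted p = 0.0027), the receptor chain Ifngr2 (0.95, adjusted p = 0.0183) and Ifnar2 (0.59, adjusted p = 0.0347).

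Target lists differed in how they split the media at 24 h. Of 16 tested interferon gamma targets outside the GTPases, 13 were called with TME-CM over unstimulated cells, 11 with TME-CM over H-CM and 6 with H-CM over unstimulated cells. The shares over all genes were 4.82%, 2.75% and 1.07% in that order. The lowest adjusted p for TME-CM over H-CM were those of Serping1, the C1 inhibitor (1.51, adjusted p = 1.09e-05), the immunoproteasome subunit Psmb8 (2.83, adjusted p = 5e-04) and the chemokine Cxcl10 (3.26, adjusted p = 0.000639). Of 10 tested type I interferon targets, 10 were called with either medium over unstimulated cells, beside 4.82% of all genes with TME-CM and 1.07% with H-CM. Between the media 0 were called by edgeR, with 3 at an unadjusted p under 0.05, beside 8.09% of all genes. All 10 still had a positive log2 fold change in TME-CM over H-CM, with Isg15 nearest the threshold (1.34, adjusted p = 0.0641). The tested GTPases gave 9 of 9, 4 of 9 and 2 of 9 in the same order. These lists were not compared by a test, and those other than the GTPases were counted with all libraries only, replicates 1 included.

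**Figure D5:**
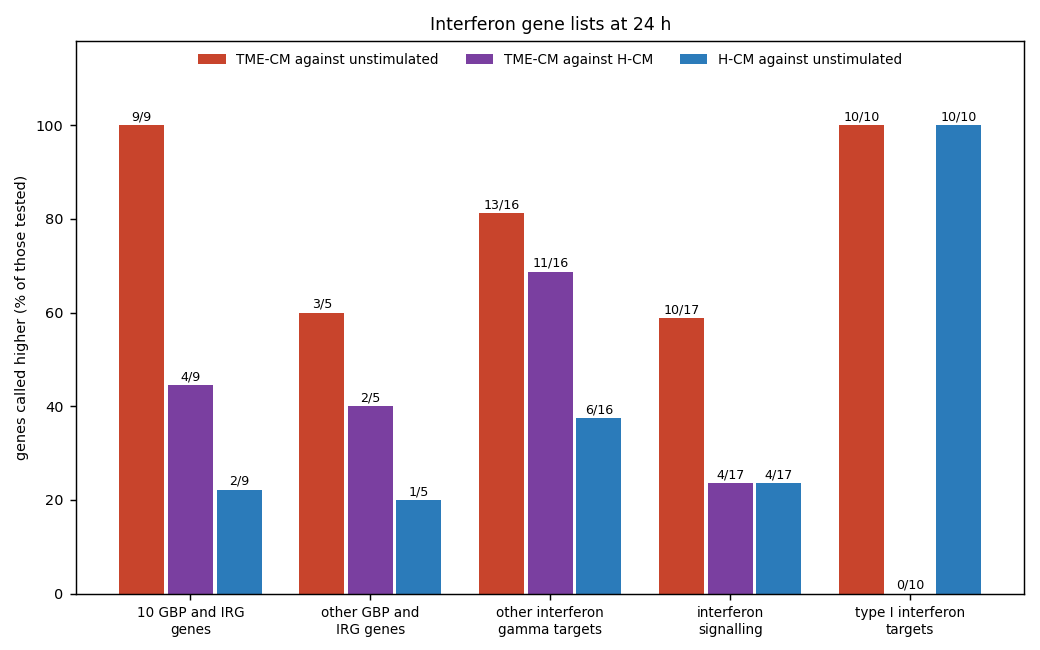
Share of tested genes called higher at 24 h (bars, in %, with counts above them) for the 10 GTPase genes and 4 other lists, in TME-CM against unstimulated, TME-CM against H-CM and H-CM against unstimulated EGCs. The type I interferon targets are called in 10 of 10 with either medium and 0 of 10 between media, the interferon gamma targets in 11 of 16 between media.

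Genes whose products work with the GTPases were read from short lists. At 24 h, 0 of 3 prenylation genes and 0 of 9 genes of ubiquitin-like conjugation in autophagy, which places IRGs and GBPs on vacuoles, were called in any of the 3 comparisons. Over all genes the share called higher was 4.82% for TME-CM over unstimulated, 2.75% for TME-CM over H-CM and 1.07% for H-CM over unstimulated cells. With so few genes, 0 calls is close to these shares. At an unadjusted p under 0.05 TME-CM against H-CM gave 1 higher and 1 lower prenylation gene and 0 autophagy genes, beside 8.09% of all genes higher. Of 3 tested inflammasome genes, Casp4 (called caspase-11 in the mouse), the lipopolysaccharide sensor to which GBPs deliver their cargo, was 2.69 higher on the log2 scale in TME-CM than in H-CM (adjusted p = 9.3e-05) and 4.16 higher than in unstimulated cells (adjusted p = 3.53e-07). Gsdmd, the pore-forming protein that caspase cleaves, was 1.62 higher in TME-CM than in unstimulated cells (adjusted p = 0.0024). It was not called over H-CM (0.972, adjusted p = 0.104). Pycard, the other gene tested, was called neither over H-CM (0.544, adjusted p = 0.788) nor over unstimulated cells (1.43, adjusted p = 0.28).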

How the data were processed

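The reads (QuantSeq, 3′ end) were adapter-filtered by the authors, aligned with HISAT2 to mm10, stripped of reads with several loci and deposited as unnormalized counts per gene (HT-seq Count). The submitters' processing notes also name FastQC 0.11.7 and SAMtools 1.5. Which annotation and strand option were used, and whether molecular identifiers were, is not given in the sources used here. Counting intervals cover counting error only.

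From these counts, genes were tested with edgeR 4.0.16 (R 4.3.3, limma 3.58.1; quasi-likelihood test, robust, TMM, filterByExpr with a minimum count of 10) in the 12 libraries of each time point. Changes between times used models of 24 libraries. CPM use TMM factors over 36 libraries, and correlations use log2 CPM with a prior count of 2. Positions are from GENCODE M21.

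All 10 genes are named, as are Ifng and Irf1 and the 5 genes of most similar pattern. For other lists the plan was to name the 3 with the lowest adjusted p in TME-CM over H-CM at 24 h. That plan was not kept for every list. Of the type I interferon targets Isg15 alone is named, and of the prenylation and autophagy genes none. Others named, such as Lcn2, Ifnb1, Ifnar2, Gsdmd, Gbp8 and Tgtp1, were picked after their values were seen. One gene of the signalling list is not reported here. The genes and lists were chosen with earlier results of these data known. DESeq2 1.42.0, other filters, model scopes, a replicate block and leaving out each library were the alternatives.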

Additional observations from a re-analysis of the deposited data

Results flagged for a closer look

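In each gene and group of 4 libraries, the highest and lowest library were checked for a gap to the nearest other library that takes up most of the group's range (Dixon's criterion). Of 79 gene and group pairs in which at least one library had more than 3 counts, 9 were set apart. For normally distributed values chance gives about 1 in 20 (5%), but CPM near 0 are skewed and a group with counts in 1 library only is always set apart, so the number says little. All 9 are high values.

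In H-CM replicate 1, 4 of them occur. Gbp3 at 24 h was 27.9 CPM against 11.9 to 13.5 CPM in the other 3 libraries, on 140 counts. Gbp5 at 12 h was 7.53 CPM against 0 to 0.353 CPM, on 28 counts. Gbp4 at 12 h was 1.08 CPM against 0 CPM, on 4 counts. Gbp9 at 6 h was 5.84 CPM against 0 to 0.528 CPM, on 4 counts. What sets these libraries apart was not tested.

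The single largest value was that of Gbp6 in TME-CM 6 h replicate 3, 66.6 CPM on 162 counts against 0.233 to 10.2 CPM. Gbp9 in H-CM 12 h replicate 3 was 5.7 CPM against 1.61 to 2.12 CPM. In unstimulated cells, Gbp3 at 6 h replicate 3 was 63.1 CPM on 12 counts against 3.92 to 7.56 CPM, Gbp4 at 6 h replicate 2 was 6.27 CPM on 8 counts against 0 CPM, and Gbp5 at 12 h replicate 2 was 2.05 CPM on 5 counts against 0 to 0.265 CPM.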

How the results depend on the processing

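Counts of called GTPase genes are given as all libraries first. For TME-CM over H-CM at 6 h the count of 1 became 3 with no filter on low counts, 2 with only the groups compared and 5 in one model of all 36 libraries, and was 1 to 1 leaving out each library in turn. For TME-CM over unstimulated at 6 h the count of 3 became 5 with the DESeq2 Wald test, 5 with no filter, 1 with only the groups compared, 8 in one model of all 36 libraries and 1 to 5 leaving out one library. At 12 h, TME-CM over H-CM went from 2 to 6 with the Wald test and 7 with no filter (2 to 7 leaving out one), and H-CM over unstimulated from 1 to 2 with the Wald test, 5 with no filter and 2 in one model of all 36 libraries (1 to 2 leaving out one, the 2 without H-CM 12 h replicate 4). At 24 h, TME-CM over H-CM went from 4 to 0 in one model of all 36 libraries (2 to 8 leaving out one), and H-CM over unstimulated from 2 to 6 with the Wald test, 6 with no filter and 5 with only the groups compared (1 to 2 leaving out one, the 1 without unstimulated 24 h replicate 1, 2 or 4). TME-CM over unstimulated stayed within 8 to 10 at 12 h and 9 to 9 at 24 h leaving out one library. TME-CM at 24 h against 12 h went from 0 to 3 with no filter and stayed at 0 leaving out one. H-CM over unstimulated at 6 h, TME-CM at 12 h against 6 h and both interactions stayed at 0 in every fit. The causes were not tested.

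Same-numbered libraries of a time point had correlated deviations over 0.1 in 1, 2 and 2 of 12 pairs in order of time, and differently numbered ones in 0, 3 and 3 of 36. The median correlations were 0.0106, 0.0303 and 0.0665 for same-numbered pairs and -0.00331, -0.00327 and -0.0113 for the others. These values are small and do not settle whether the numbers pair the libraries. The main fits left them unpaired, and a replicate block was run as an alternative. With a replicate block the count for TME-CM over unstimulated at 6 h was 1, and for TME-CM over H-CM it was 1, 2 and 3 at the 3 times.

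No member changed sign in TME-CM over H-CM or over unstimulated cells under any alternative run. Changes of sign were all in results that were not called: Gbp7 from 6 h to 12 h with TME-CM was 0.0594 with DESeq2 size factors, 0.0596 with the Wald test and 0.0225 in one model of all 36 libraries, with the replicate block Gbp3 in the 6 h to 12 h interaction was -0.0182 and Gbp6 from 12 h to 24 h was 0.127, and the others followed the loss of 1 library. Leaving out one library at a time, H-CM over unstimulated ran from -1.33 to 0.00849 for Gbp2 and -1.07 to 0.927 for Gbp3 at 6 h, and for Gbp5 from -1.06 to 3.38 at 12 h and -1.21 to 2.01 at 24 h. The change with TME-CM from 6 h to 12 h ran from -0.606 to 0.0438 for Gbp2, -0.153 to 0.484 for Gbp5, -0.491 to 0.361 for Gbp7 and -0.981 to 0.0175 for Igtp, and from 12 h to 24 h from -0.525 to 0.457 for Gbp6 and -0.771 to 0.0392 for Gbp7. The first interaction ran from -0.0637 to 0.531 for Gbp3, -0.0618 to 0.884 for Gbp7, -1.36 to 1.85 for Gbp9 and -0.253 to 1.21 for Iigp1, and the second from -2.89 to 1.95 for Gbp5, -0.881 to 0.125 for Gbp7 and -0.764 to 0.24 for Irgm1. Depth limits Gbp4, Gbp6 and Gbp9 most, and every value at 6 h.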

Other observations

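The libraries numbered 1 stood apart in other interferon genes as well. TME-CM replicate 1 was the lowest of its group for 12 of 18 other interferon gamma targets with counts at 12 h and for 13 of 18 at 24 h, and for 9 of 12 type I interferon targets at both times. H-CM replicate 1 was the highest of its group for 13 of 17 and 15 of 17 other interferon gamma targets at 12 h and 24 h, and for 10 of 12 type I targets at both. H-CM replicate 4 was the lowest at 24 h for 9 of 10 GTPase genes and 9 of 12 type I targets, and over all genes kept for 30.8%.

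Of the other family members, Gbp8 had 164 counts with TME-CM at 6 h, 163 of them in replicate 1 (38 CPM), and 0 in unstimulated cells, so that almost nothing is left without that library. Tgtp1, also an IRG, had 70 counts with TME-CM at 12 h (0, 33, 22 and 15 in replicates 1 to 4), 0 with H-CM and 5 in unstimulated cells. These counts cannot be assigned to Tgtp1 with certainty, since 100% of the 50-base stretches in the last 500 bases of its transcript also occur in Tgtp2.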
